A study of Mus musculus with 2 samples.

Results

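Mir103-1, Mir103-2 and Mir107 are the 3 mouse genes of the microRNAs miR-103 and miR-107, and each lies in an intron of a pantothenate kinase gene. They were taken by name from the 1973 miRNA genes in the count tables, with no measured value used in the choice. Small RNA had been sequenced from whole forebrain of B6NCrl mouse embryos at 14.5 days, as 2 libraries from 1 group. The labels call them biological replicates 1 and 2 and describe each as the forebrain of 1 pup, collected on different days. They also give a pooled sex and the same donor identifier for both, which is at odds with single embryos, and part of the spread between these libraries may therefore be technical.

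miRNAs are cut from hairpin precursors into short mature strands, called the 5p and 3p arms after the side of the hairpin they come from. A mature strand finds its target mRNAs mainly through its seed, bases 2 to 8. miR-103 and miR-107 are known to dampen insulin signalling in liver and fat of mice, and in human cells they repress the miRNA-processing enzyme DICER1. Their hosts Pank1, Pank2 and Pank3 encode kinases that phosphorylate pantothenate (vitamin B5) in the step that controls coenzyme A synthesis.

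The sequences show what the 3 genes share and where they part. The mature 3p and 5p strands (RefSeq, GRCm38) are given with the seed in capitals.
miR-107-3p: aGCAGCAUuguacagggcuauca
miR-103-3p: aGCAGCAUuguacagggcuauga
miR-107-5p: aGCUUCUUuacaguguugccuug
miR-103-2-5p: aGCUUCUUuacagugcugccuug
miR-103-1-5p: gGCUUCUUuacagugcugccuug
Both Mir103 genes encode the same miR-103-3p. It differs from miR-107-3p at 1 of 23 bases, G22C counted from the 5′ end with the miR-103 base written before the position. The 5p strands of the 3 genes are all different. From miR-103-2-5p to miR-107-5p the change is C16U, and from miR-103-1-5p to miR-103-2-5p it is G1A. Each arm has 1 seed in all 3 genes, and among 1738 RefSeq mature entries neither seed occurred in a gene outside the family. Of the 1973 genes counted, 1046 matched no RefSeq entry, so this search may not cover them.

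The precursors are shown to place both arms, in capitals, within each hairpin.
Mir107: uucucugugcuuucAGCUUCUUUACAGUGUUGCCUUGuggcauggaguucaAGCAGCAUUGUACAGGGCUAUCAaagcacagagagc
Mir103-2: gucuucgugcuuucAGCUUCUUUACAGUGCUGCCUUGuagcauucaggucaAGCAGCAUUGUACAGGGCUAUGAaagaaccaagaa
Mir103-1: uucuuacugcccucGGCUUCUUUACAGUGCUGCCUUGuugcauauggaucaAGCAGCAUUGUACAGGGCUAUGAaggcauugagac
The hairpins are 87, 86 and 86 nt long, so their counts were not scaled by length. In a global alignment Mir107 was identical to Mir103-2 at 83.9% of the columns and to Mir103-1 at 80.5%, and Mir103-1 to Mir103-2 at 80.2%. Outside the arms, the flanks and the loop carry most of the differences. The predicted folding energy was -41.2 kcal/mol for Mir107, -31.8 for Mir103-2 and -35.8 for Mir103-1.

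The 3 genes sit at the same place in their hosts (mm10, GENCODE M21). Mir107 (ENSMUSG00000065594.1) lies at chr19:34820687-34820773 on the minus strand, in Pank1. Mir103-2 (ENSMUSG00000065563.1) lies at chr2:131288052-131288137 on the plus strand, in Pank2. Mir103-1 (ENSMUSG00000065553.1) lies at chr11:35782396-35782481 on the plus strand, in Pank3. Each has the strand of its host, and in the longest protein-coding transcript of each host the hairpin falls in intron 5 of 6. The distance to the exon upstream is 326 bases for Mir107, 454 for Mir103-2 and 688 for Mir103-1. The distance to the exon downstream is 6869, 5261 and 966 bases in the same order. No annotated host transcript has a hairpin in an exon, and no gene is annotated on the opposite strand. RNA of the host genes was not measured.

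Levels are counts of reads on the strand of the gene, given as CPM, the count per 1000000 miRNA counts of the library. The libraries held 7080317 miRNA counts in replicate 1 and 7946585 in replicate 2, out of 18598385 and 20638071 reads, and 3 counts, taken as the floor, were 0.424 and 0.378 CPM. The neural markers were the Mir9, Mir124a and Mir128 genes, Mir137, Mir153 and Mir7b. Detected, which means 10 counts or more in each library, were 9 of the 10 measured, against 399 of all 1973 genes. These 9 ran from Mir137 at 7614 ± 481 CPM to Mir124a-2 at 1.78 ± 0.514 CPM (SD, n = 2). In replicates 1 and 2 Mir9-3 had 4489 and 4415 counts, and Mir9-2 had 28 and 48. Every arm of these Mir9 genes is identical in another gene, so their counts may lack full-length miR-9 reads. The 3 loci of miR-124, a miRNA typical of neurons, held at most 18 counts each; whether they share mature strands was not assessed here, so a low level and reads left in the multi-mapping total cannot be told apart. Of the markers of other cells, endothelial Mir126a stood at 22234 ± 185 CPM (SD, n = 2), and myeloid Mir223 held 0.00810% of the counts. Myeloid Mir142, muscle Mir1a-2 and neural Mir9-1, also on the marker lists, were not found by name among the measured genes. The liver marker Mir122 had 73 and 81 counts in replicates 1 and 2. Of the erythroid pair, Mir451a had 2806 counts in replicate 1 and 4119 in replicate 2, and Mir144 had 26 and 145. Of the striated muscle genes Mir206 had 136 and 108 counts, and Mir1a-1 and both Mir133a genes had 0. Their part in the results below was not tested.

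The 3 genes stood at 3 widely separated levels, with Mir107 far above both Mir103 genes. Mir107 had 15802 counts in replicate 1 and 14392 in replicate 2, or 2232 and 1811 CPM. Mir103-2 had 421 and 399 counts, or 59.5 and 50.2 CPM. Mir103-1 had 64 and 69 counts, or 9.04 and 8.68 CPM. Both libraries gave the same order, and the ranges of the 3 genes did not overlap. In a bulk sample, fewer cells making a miRNA and less of it per cell cannot be told apart. Full-length miR-103-3p matches both Mir103 genes, as followed below, so their counts may lack reads of a kind that Mir107 can hold.

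As means, Mir107 stood at 2021 ± 298 CPM, Mir103-2 at 54.8 ± 6.54 CPM and Mir103-1 at 8.86 ± 0.252 CPM (SD, n = 2). On the log2(CPM + 1) scale Mir107 was 5.18 ± 0.0436 above Mir103-2 and 7.67 ± 0.176 above Mir103-1, and Mir103-2 was 2.50 ± 0.133 above Mir103-1. In counts, Mir107 exceeded Mir103-1 by 247-fold in replicate 1 (95% exact interval 193 to 321) and by 209-fold in replicate 2 (165 to 268). Without molecular identifiers on the reads, such intervals hold the error of counting and nothing more. With 2 libraries of 1 group these differences are descriptions and no test between genes was made.

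Among the 399 genes detected in both libraries, Mir107 ranked 64 by mean CPM, Mir103-2 ranked 222 and Mir103-1 ranked 298. The median detected gene had 81.0 CPM, so Mir107 lay above it and both Mir103 genes below. The 3 genes together held 0.230% of the miRNA counts in replicate 1 and 0.187% in replicate 2, a mean of 0.209% ± 0.0304 (SD, n = 2). Of this sum Mir107 made up 97.0% in replicate 1 (95% exact binomial interval 96.7% to 97.3%) and 96.9% in replicate 2 (96.6% to 97.1%). Mir103-2 made up 2.63% ± 0.0708 and Mir103-1 0.429% ± 0.0505 (SD, n = 2). These shares cover the counted reads alone and leave out any in the multi-mapping total.

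**Figure D1:**
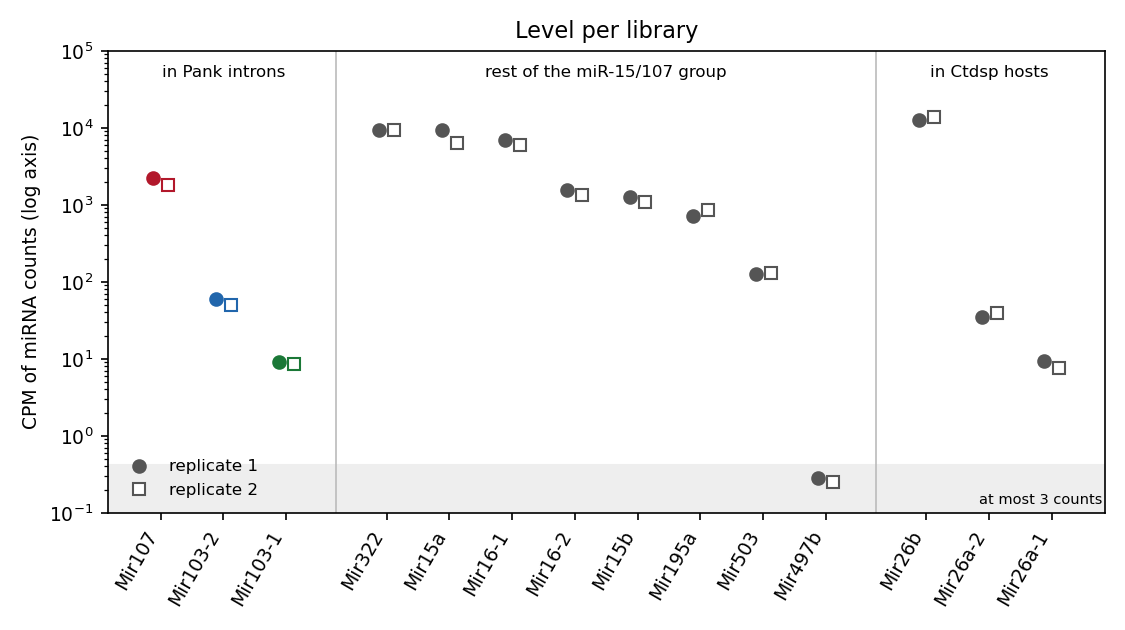
CPM of miRNA counts (log axis) for the 3 genes in Pank introns, the rest of the miR-15/miR-107 group and the miR-26 genes in Ctdsp hosts, with a filled circle for replicate 1 and an open square for replicate 2. Mir107 lies near 2021 CPM and Mir103-2 and Mir103-1 at 54.8 and 8.86 CPM, and the shaded band marks 3 counts or fewer. Mir195b, at 0 counts, is not drawn, and Mir497b stands in place of Mir497, which was not measured.

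All reads of a library are here the sum of the gene counts and 4 totals, among them one of multi-mapping reads. That a read in that total was counted for no gene is taken from its name and was not checked. Reads were therefore followed in the annotated hairpins, starting at the first base of each arm and growing base by base. The shortest reads from the 3p arm that occurred in 1 hairpin are shown with their last base, which sets them apart, in capitals.
Mir107, 22 nt: agcagcauuguacagggcuauC
Mir103-2, 25 nt: agcagcauuguacagggcuaugaaA
Mir103-1, 25 nt: agcagcauuguacagggcuaugaaG
From 16 to 21 nt a 3p read matched all 3 genes. From 22 nt on a miR-107-3p read matched Mir107 alone, although the mature strand has 23 nt. A miR-103-3p read still matched both Mir103 genes at its full 23 nt, and became unique to 1 gene at 25 nt, 2 bases beyond its annotated end. Reads from the first base of the 5p arms, base 15 of each hairpin, matched 1 gene at every length from 16 to 29 nt. Stretches of 22 nt that start at base 16 or 17 were held by both Mir103 hairpins.

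**Figure D2:**
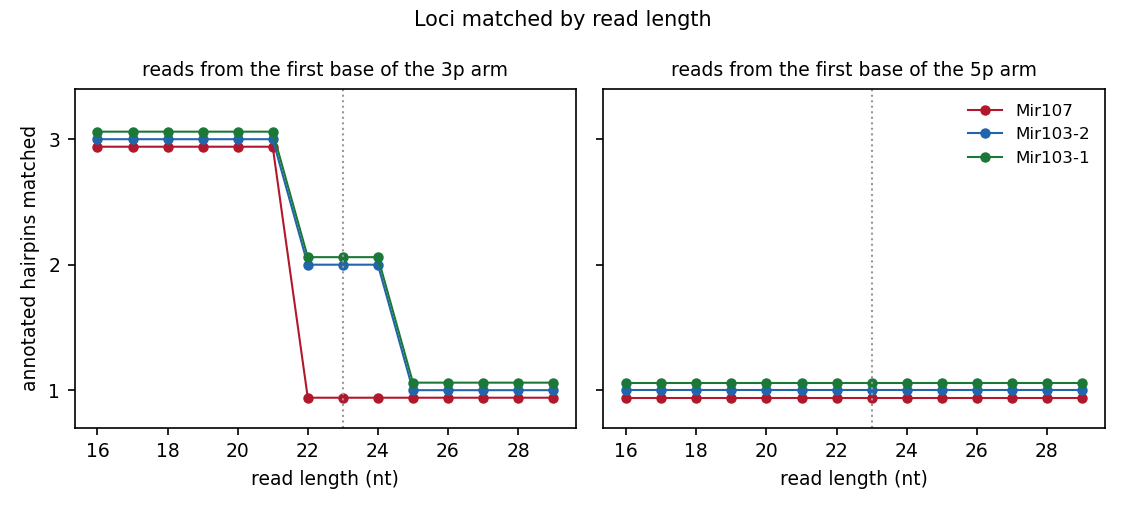
Number of annotated hairpins (y axis) that hold a read of 16 to 29 nt (x axis) starting at the first base of the 3p or 5p arm of each gene; lines are set slightly apart where they coincide and the dotted line marks the 23 nt of the mature strands. The 3p line of Mir107 reaches 1 hairpin at 22 nt and those of both Mir103 genes at 25 nt.

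Full-length miR-103-3p is the strand for which both Mir103 genes are named. If multi-mapping reads were counted for no gene, it could, as an exact match, enter the count of neither. Full-length miR-107-3p could enter that of Mir107. The Mir103 counts can hold 5p reads from the first base of the arm, 3p reads of 25 nt or more and other reads with unique bases. The tables do not separate these. On that reading the counts give no level of full-length miR-103-3p. A low output of both Mir103 genes and reads left in the multi-mapping total cannot be told apart. The multi-mapping total was 43.3% of all reads in replicate 1 and 42.2% in replicate 2. It held 495 and 586 reads per count of the 3 genes, and how many of them were miR-103-3p was not tested.

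Seen over the whole hairpin, the shared stretch was short. Of the 22-nt windows, 61 of 66 in Mir107 (92.4%) occurred in no other annotated hairpin, against 55 of 65 in Mir103-2 (84.6%) and 57 of 65 in Mir103-1 (87.7%). Windows starting at bases 49 to 51 were held by all 3 hairpins, and those starting at 52 to 54 by both Mir103 hairpins. The 3p arm spans bases 52 to 74 in each hairpin. Of its 2 windows of this length, both were unique in Mir107 and none was in either Mir103 gene. In the 5p arm 2 of 2 were unique in Mir107 and 1 of 2 in each Mir103 gene.

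**Figure D3:**
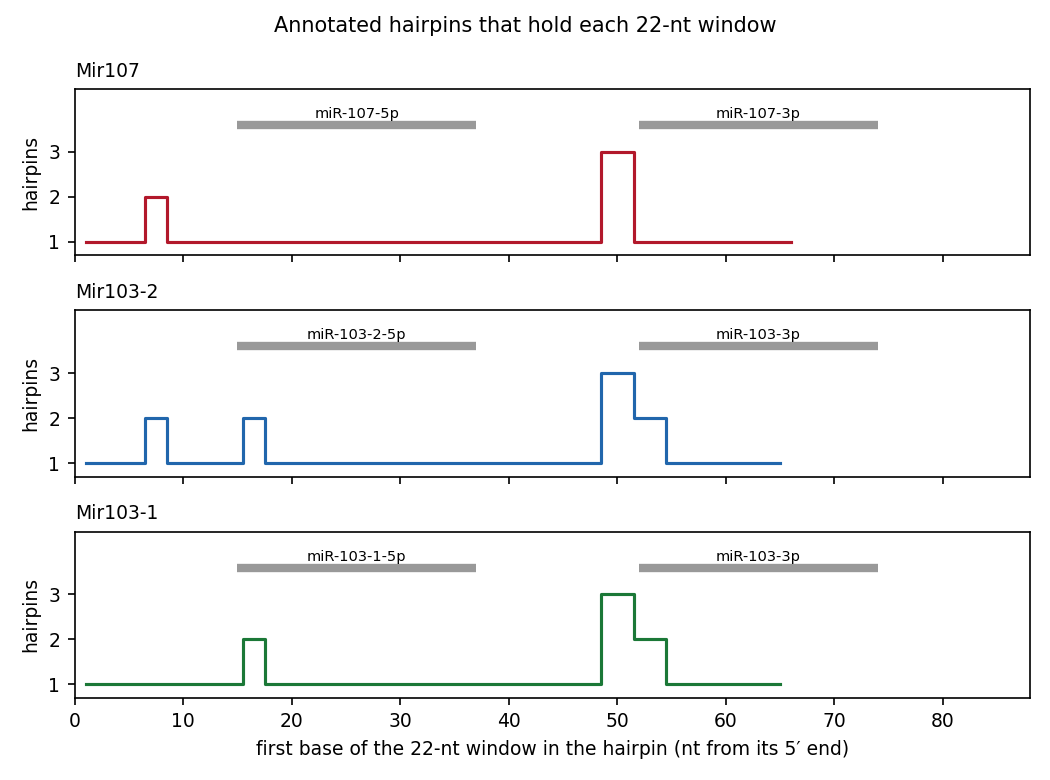
Number of annotated hairpins (y axis) holding each 22-nt window of Mir107, Mir103-2 and Mir103-1, by the base at which the window starts, with grey bars for the mature arms. The step to 3 hairpins at starts 49 to 51 is common to all, and the step at 2 hairpins that follows it is seen in both Mir103 genes.

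A similar layout was found in the miR-26 family, whose genes lie in hosts of the Ctdsp phosphatase family. Mir26b, with arms of its own, had 13126 ± 908 CPM, and Mir26a-2 and Mir26a-1, which share miR-26a-5p, had 37.1 ± 3.56 and 8.44 ± 1.25 CPM (SD, n = 2). Their shared arm became unique at 26 nt, 4 bases beyond its end. Other genes with a shared arm had higher counts. Mir16-1 and Mir16-2 share miR-16-5p, unique at 24 nt and so also 2 bases beyond its end, and they stood at 6426 ± 580 and 1436 ± 155 CPM. Mir128-1 and Mir128-2, whose shared miR-128-3p is unique at 22 nt, had 756 ± 246 and 644 ± 161 CPM.

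Across the tables, 927 gene IDs matched a RefSeq miRNA entry, and 87 genes had at least 1 mature strand that is identical in another gene. Of these, 53 had some arms shared, as in both Mir103 genes, and 39 of the 53 were detected, with a median of 149 CPM. Mir103-2 ranked 25 and Mir103-1 ranked 33 among the 39. Of 829 genes with no arm shared, as in Mir107, 314 were detected, with a median of 97.1 CPM. Of 34 genes with all arms shared, 8 were detected, with a median of 66.4 CPM. Not classed were 1046 genes that matched no entry, among them the 3 miR-124 loci, and 11 with no mature strand in their entry. Of these, 35 and 3 were detected. The classes and the pairs below are limited to the matched entries, and copies missing from these would not be seen. The gene pairs listed here with an identical strand numbered 18 with both genes detected. This listing is not complete. Mir9-3 at 595 ± 55.5 CPM and Mir9-2 at 5.00 ± 1.47 CPM (SD, n = 2), both with all arms shared, are not in it. Among the 18 listed pairs the higher gene exceeded the lower by a median of 3.53-fold. Their range was from 1.17-fold for Mir128-1 over Mir128-2 to 95.8-fold for Mir181b-2 over Mir181b-1. Pairs outside the listing are not covered by these values. Mir103-2 over Mir103-1 was at 6.19-fold, with 3 of the 18 pairs further apart.

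miR-103 and miR-107 belong to the wider miR-15/miR-107 group, whose members hold the same run of bases near the 5′ end, here shown with bases 2 to 8 in capitals.
miR-107-3p: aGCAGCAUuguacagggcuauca
miR-15a-5p: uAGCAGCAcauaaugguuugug
miR-16-5p: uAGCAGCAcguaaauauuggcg
miR-322-5p: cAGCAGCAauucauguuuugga
miR-503-5p: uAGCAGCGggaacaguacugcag
The run begins at the first base in miR-107 and at the second in the others. Mir107 lay in the middle of the group's levels. Above it were Mir322 at 9370 ± 77.6 CPM, Mir15a at 7958 ± 2159 CPM and Mir16-1. Below it were Mir16-2, Mir15b at 1171 ± 103 CPM, Mir195a at 716 and 867 CPM in replicates 1 and 2, and Mir503 at 130 ± 2.42 CPM (SD, n = 2). miR-15 and miR-16 are known for holding back cell cycle genes, and Mir322 and Mir503 form an X-linked cluster. Mir107 and Mir16-2 were close, yet Mir107 had the higher CPM in each library. Of the 9 genes of this list measured besides Mir107 and both Mir103 genes, 7 were detected and held 2.73% ± 0.281 of the counts (SD, n = 2), against 0.209% for the genes in Pank hosts. Mir497b had 2 counts in each library and Mir195b none. Mir497, whose miR-497a-5p holds the run, was not among the measured genes, and Mir497b on the other strand was listed in its place. Counts on the strand opposite Mir497b, 2142 in replicate 1 and 2963 in replicate 2, are not in the 7 detected genes or their share.

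The genes nearest to each member in level over the 2 libraries were found by Euclidean distance on log2(CPM + 1). For Mir107 they were Mir1298 (distance 0.118), Mir7b (0.144) and Mir381 (0.157). For Mir103-2 they were Mir302b (0.0874), Mir31 (0.142) and Mir452 (0.185), and for Mir103-1 Mir5113 (0.0453), Mir1930 (0.136) and Mir211 (0.160). Directly above and below Mir107 in mean CPM came Mir7b at 2120 ± 167 and Mir379 at 1968 ± 56.4 (SD, n = 2). Mir103-2 stood between Mir192 at 56.5 ± 3.86 CPM and Mir302b at 54.2 ± 3.20 CPM, and Mir103-1 between Mir3057 at 8.93 ± 1.95 CPM and Mir5113 at 8.66 ± 0.141 CPM. None of these 6 neighbours differed from its member by more than the spread between the libraries.

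Between the libraries Mir107 was higher in replicate 1, by 1.23-fold in CPM (95% exact interval 1.20 to 1.26; Fisher's exact test, two-sided, Benjamini-Hochberg adjusted p = 4.96e-72). Mir103-2 had a ratio of replicate 1 over replicate 2 of 1.18 (1.03 to 1.36) and did not pass (adjusted p = 0.155, Fisher's exact test). It passed when p was adjusted over only the 445 genes with 10 or more counts in a library (adjusted p = 0.0351, Fisher's exact test; 0.147 to 1 under the other alternatives). Mir103-1 had a ratio of 1.04 (0.729 to 1.48) and did not pass either (adjusted p = 1, Fisher's exact test). The ratio of Mir103-1 fell below 1 with TMM (0.985), median-of-ratios factors (0.964) and totals without Mir99a (0.992), so no direction is given for it.

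With the adjustment over all genes, 1 of the 3 was called, against 9.02% of all 1973 genes and 5.83% called higher in replicate 1. Of the genes, 1236 had no count in either library. Among the 399 detected genes 43.9% were called. Among the 172 genes with 1000 or more counts in both libraries, 80.2% were called in either direction and 50.0% higher in replicate 1, so a call for a gene as deep as Mir107 is near the background. The test sets 1 library against the other, with counting as its sole source of error. The median gap between the libraries over detected genes was 1.17-fold, and 38.6% of these genes had a wider gap than Mir107. Erythroid Mir144 had a ratio of 0.201 (adjusted p = 4.36e-17) and Mir451a of 0.765 (adjusted p = 7.25e-27, Fisher's exact test), both the other way from Mir107, and the part of blood in the difference was not tested. Median-of-ratios scaling took the ratio of Mir107 to 1.14 (adjusted p = 3.44e-29, Fisher's exact test), and the split of all calls moved to 80 higher in replicate 1 and 90 higher in replicate 2, against 115 and 63 with plain totals; TMM gave 88 and 79, and totals without Mir99a 91 and 78. Relative to plain totals, median-of-ratios factors shift every log2 ratio by -0.11.

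**Figure D4:**
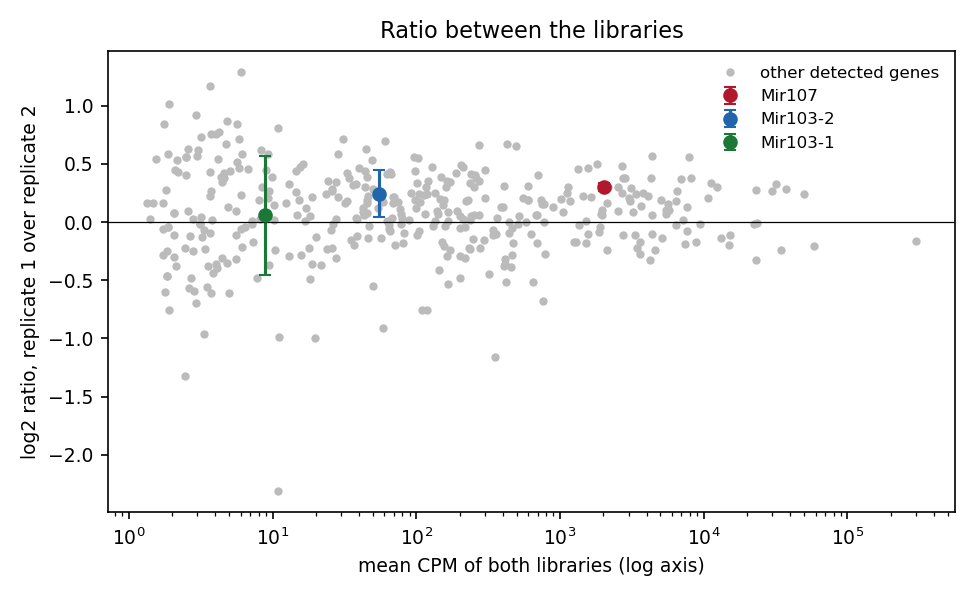
Log2 ratio of CPM, replicate 1 over replicate 2 (y axis), against mean CPM of both libraries (log axis) for the genes detected in both libraries, with 95% exact counting intervals for the 3 genes. Mir107 lies above 0 with a narrow interval, and the interval of Mir103-1, at 64 and 69 counts, spans 0.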

How the data were processed

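Small RNA of embryonic mouse forebrain was sequenced in 2 libraries. The authors deposited whole-number read counts per miRNA gene, 1 table per library, with 3 count columns (either strand, strand of the gene, opposite strand) and 4 totals of unassigned reads. Per the deposited README files, counts came from alignments to mm10 with GENCODE M4. Which aligner and counter made them was not given in the sources used here. The totals, among them 42.7% ± 0.822 multi-mapping and 16.8% ± 0.325 unmapped reads (SD, n = 2), stayed out of library sizes and tests.

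Gene-strand counts were scaled to CPM. Genes were named from GENCODE M21 by ID (1894 of 1973 matched), and mature strands came from RefSeq (GRCm38.p6). All 3 genes matched both, and their RefSeq and GENCODE hairpins were identical. Windows and reads were searched, on both strands and without mismatches, in 2202 GENCODE M21 hairpins. No genome was searched, so a match elsewhere in the genome would not be seen. Folding energies are from RNAfold 2.7.2 and alignments from Biopython, with a match scored 1 and a mismatch -1.

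Each gene was compared between the libraries by Fisher's exact test, two-sided (scipy 1.17.1), against the remaining miRNA counts, adjusted over all genes, with a threshold of 0.05. The test was checked on simulated counts drawn with counting error alone, so the check does not cover other differences between libraries. Alternatives covered the count column, denominators, TMM (edgeR 4.0.16) and median-of-ratios (DESeq2 1.42.0) scaling, pseudocounts, filters, window lengths and each library alone.

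The members, lists and tests were chosen with earlier results of these data known. Named genes are the members, the miR-15/107 group, the genes adjacent or nearest in level, other host families and up to 5 genes with shared strands. The read lengths of other families, the gene pairs with an identical strand and the names of their extreme pairs were added after values were seen.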

Additional observations from a re-analysis of the deposited data

Results flagged for a closer look

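The deposited totals are taken to hold reads that no gene count uses. Multi-mapping reads were 43.3% of all reads in replicate 1 and 42.2% in replicate 2. Full-length miR-103-3p matches both Mir103 hairpins exactly, and the part of this total that it makes up was not tested. Mir497b, listed with the miR-15/miR-107 group, had 2 counts on its own strand in each library. Its opposite strand, where Mir497 is annotated, held 2142 counts in replicate 1 and 2963 in replicate 2. Mir107, Mir103-2 and Mir103-1 had 0 opposite-strand counts in both libraries.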

How the results depend on the processing

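The scalings move all genes of a library alike and cannot change the order of Mir107, Mir103-2 and Mir103-1, and no alternative that places multi-mapping reads was run. Per 1000000 of all reads the 3 genes had 773, 21.0 and 3.39, and with totals that leave out Mir99a 2887, 78.3 and 12.7 CPM; their joint share was 0.0798% and 0.298%. Either-strand counts, TMM and median-of-ratios factors moved the CPM by less than the spread between the libraries. A pseudocount of 5 gave log2 differences of 7.18 for Mir107 over Mir103-1, 5.08 for Mir107 over Mir103-2 and 2.11 for Mir103-2 over Mir103-1. Single libraries gave 1811 to 2232, 50.2 to 59.5 and 8.68 to 9.04 CPM.

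The ratio of Mir103-1 between the libraries turned to 0.985 under TMM, to 0.964 under median-of-ratios scaling and to 0.992 without Mir99a (adjusted p = 1 in each, Fisher's exact test), which lower all log2 ratios by construction. The ratio of Mir103-2 of 1.18 passed when the adjustment covered only the 445 genes with 10 or more counts in a library (adjusted p = 0.0351, Fisher's exact test). Called genes numbered 178, and 7 with at least 2-fold. The share of unique windows was 81.4%, 68.1% and 76.8% at 18 nt and 100%, 95.2% and 95.2% at 25 nt for Mir107, Mir103-2 and Mir103-1. At 22 nt, a search of all annotated transcripts, added after seeing the data, left the shares of the 3 genes as they were. At 18 nt, Nin shared a window with Mir103-1, and Boll, Gm37582 and Ppfibp2 with Mir107. A search of the whole genome was not run. No paired analysis was possible because there is 1 group.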
